A study of Mus musculus with 18 samples.

Results

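This account covers 10 genes of bile acid synthesis and transport in mouse liver: Cyp7a1, Cyp8b1, Cyp27a1, Cyp7b1, Cyp39a1, Baat, Slc27a5, Nr0b2, Abcb11 and Slc10a1. The members were taken by name from the pathway, with every array probe that maps to one of them, which gave 12 probes for 10 genes out of 39429 probes and 21153 named genes on the array. All 12 probes lay above background on all 18 arrays. Slc27a5 and Slc10a1 have 2 probes each and the other 8 genes have 1.

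The study asked how methotrexate, an antifolate used against cancer and inflammatory disease, alters liver metabolism in diet-induced obesity. The 18 livers came from male C57BL/6 mice, 1 array per mouse, in 4 groups. LFD mice (n = 4) ate a low fat diet with 10% fat and had no treatment, and HFD mice (n = 4) ate a 60% high fat diet and had no treatment. LFD-MTX50 (n = 5) and HFD-MTX50 (n = 5) mice ate the same diets and also had methotrexate at 50 mg/kg by intraperitoneal injection, 5 times. Every mouse went onto its diet at 6 weeks of age, dosing started 10 weeks later, and treated livers were taken 1 week after the last dose. The diet continued during treatment, no vehicle group is named, and the whole liver was used, so fewer cells of a type and less RNA per cell cannot be told apart.

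Bile acids are made from cholesterol in hepatocytes. In the classic route Cyp7a1 takes the first and rate-limiting step and Cyp8b1 directs the product towards cholic acid, while the alternative routes use Cyp27a1, Cyp7b1 and Cyp39a1 to hydroxylate the side chain or the oxysterols that arise from it. Slc27a5 and Baat then couple bile acids to coenzyme A and to taurine or glycine, Abcb11 pumps the conjugates into bile and Slc10a1 takes them up again from portal blood. Bile acids that return to the liver act on the receptor FXR, which raises Nr0b2, a nuclear corepressor also called SHP, and lowers synthesis.

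A level below is the log2 processed signal of a probe minus the 75th percentile of its array. Levels can be compared between mice for 1 gene but not between genes. A difference is between group means on this scale, given ± its standard error, and a gene was called changed at an adjusted p below 0.05 from limma, with Benjamini-Hochberg adjustment over 35738 probes. Before scaling, the 75th percentile of an array lay between 1203 and 2263 intensity units and 83.9 to 90.6% of probes lay above background. All 8 hepatocyte markers (Alb, Ttr, Apoa1, Apob, Serpina1a, Tat, Cps1 and Arg1) lay above background on all 18 arrays. The scaling moved the median difference of all genes in LFD-MTX50 vs LFD from 0.10 to 0.00 under quantile normalization, and the share of called genes that were higher there from 62.7% to 45.4%. In HFD vs LFD that share moved from 63.4% to 47.5%. The arrays lie on 6 slides. LFD lies on 1 slide of its own, LFD-MTX50 lies on 2 others, and only HFD and HFD-MTX50 share a slide, with 2 mice each. All comparisons but HFD-MTX50 vs HFD were therefore made wholly across slides. HFD-MTX50 vs HFD was made partly across slides, as HFD mice 1 and 2 lie on 1 slide and HFD-MTX50 mice 3 to 5 on another. For each member and each list gene named with a call below, the limma adjusted p under a random slide block is given, or the loss stated, where that block ended the call. Over the 71 measured genes of the 6 other lists below, the block left 1 of 21 calls in HFD vs LFD, 11 of 12 in HFD-MTX50 vs HFD, 4 of 24 in LFD-MTX50 vs LFD and 2 of 16 in HFD-MTX50 vs LFD-MTX50.

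**Figure D1:**
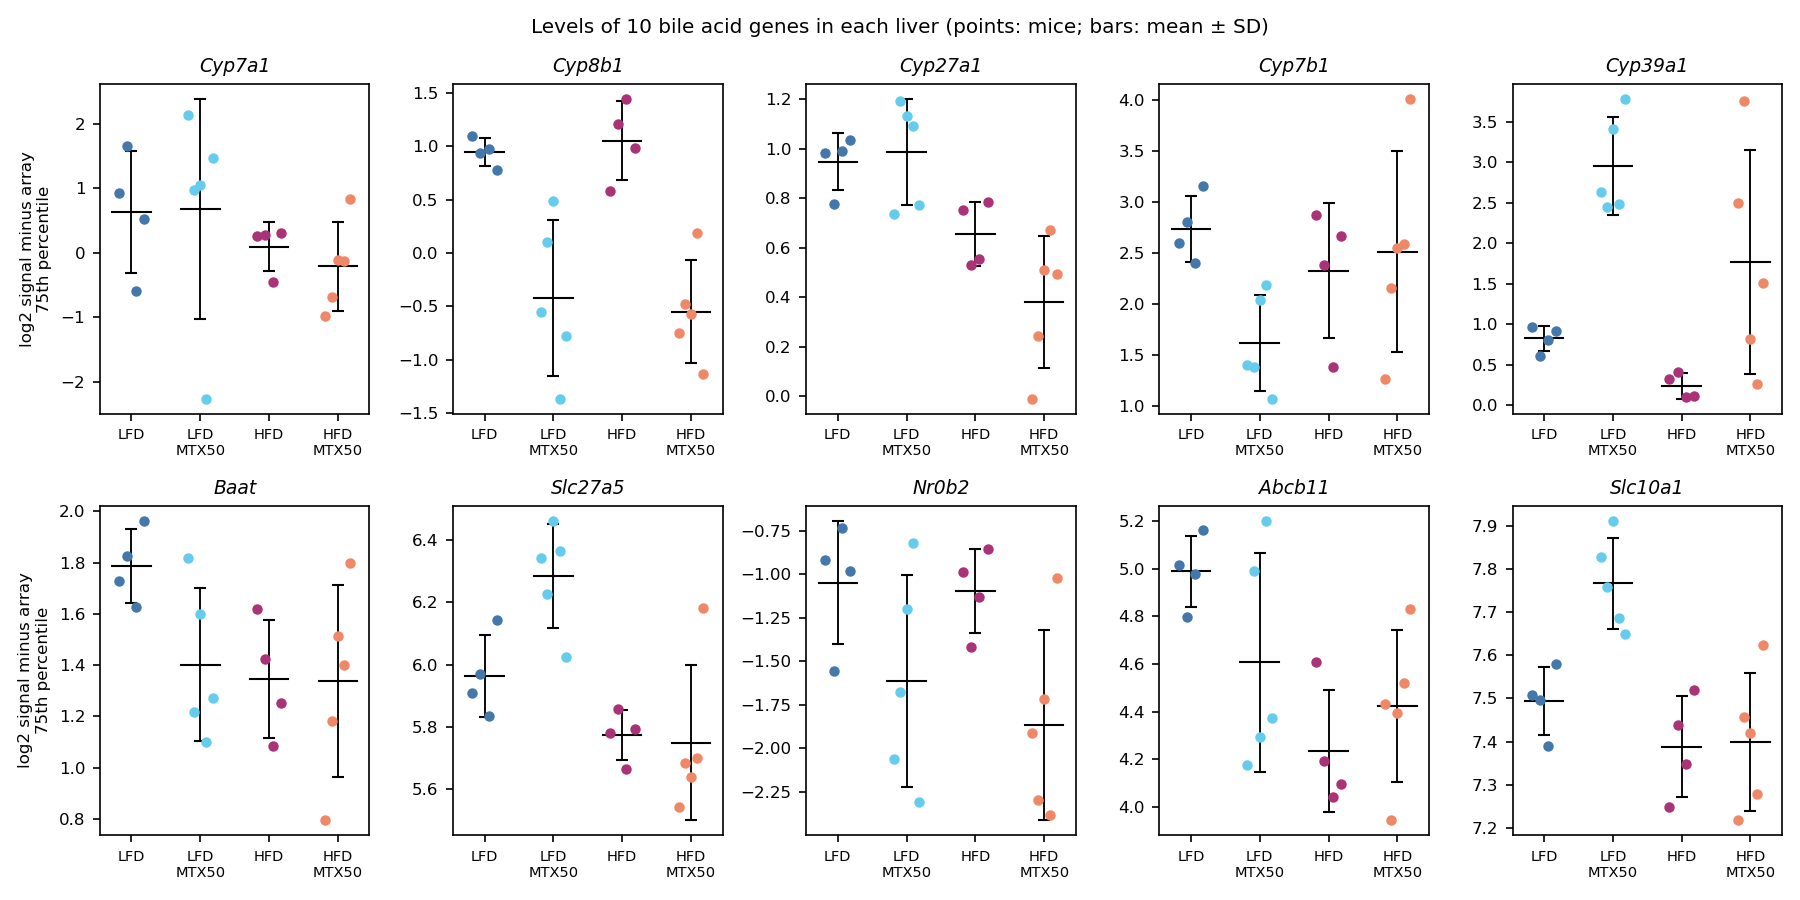
Level of each of the 10 genes (log2 signal minus the array's 75th percentile, its own axis in each panel) by group (untreated and treated livers on each diet); points are mice and bars the mean ± SD. Cyp8b1 lies lower in all 10 treated livers than in all 8 untreated ones, and Cyp39a1 lies above the LFD range in all 5 LFD-MTX50 livers but in only some HFD-MTX50 livers.

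Cyp8b1 was the member that fell with methotrexate on both diets. Its levels were 1.10, 0.94, 0.97 and 0.78 in LFD mice 1 to 4 and 0.58, 1.21, 1.44 and 0.99 in HFD mice 1 to 4. They were -0.55, 0.10, 0.49, -1.36 and -0.78 in LFD-MTX50 mice 1 to 5. They were -0.75, -0.48, -0.57, 0.18 and -1.13 in HFD-MTX50 mice 1 to 5. The lowest untreated liver (HFD mouse 1) still lay above the highest treated liver (LFD-MTX50 mouse 3), so the groups did not overlap on either diet. In order, the means ± SD were 1.05 ± 0.37 for HFD, 0.95 ± 0.13 for LFD, -0.42 ± 0.73 for LFD-MTX50 and -0.55 ± 0.48 for HFD-MTX50.

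On the high fat diet the Cyp8b1 difference between treated and untreated livers was -1.60 ± 0.31, a 3.04-fold fall (limma adjusted p = 0.00925). On the low fat diet it was -1.37 ± 0.31, a 2.58-fold fall (limma adjusted p = 0.00684). The 2 falls differed by -0.23 ± 0.44 (95% interval -1.17 to 0.70, limma adjusted p = 0.716), so no diet dependence of the fall was detected. Diet alone gave 0.11 ± 0.33 in untreated livers (limma adjusted p = 0.827) and -0.13 ± 0.30 in treated ones (limma adjusted p = 0.789). Within the slide that HFD and HFD-MTX50 share, the fall was -1.83 ± 0.50 (limma adjusted p = 0.0410), and between the remaining mice of both groups it was -1.40. The high fat call was lost when slide entered as a fixed block (limma adjusted p = 0.0880) and with only those 2 groups in the fit (limma adjusted p = 0.0688), and the low fat call under a random slide block (-1.42, limma adjusted p = 0.0913). Both calls held without each of the 18 mice in turn.

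The 250 bases before the transcription start are shown here for Cyp8b1, together with those of Nr0b2 and Abcb11, because Cyp8b1 carries the clearest treatment difference, Nr0b2 encodes the corepressor that FXR raises, and Abcb11 is a known FXR target with a diet difference. The windows are RefSeq's for build GRCm38.p6, and 5 of the 10 members (6 windows) had one. Capitals mark letters found by a search on both strands for 3 receptor patterns: CAAGGNCA (letters that NR5A2 binds), CAAAGTCCA (letters that HNF4A binds) and the inverted repeat AGGNCA and TGNCCT with 1 base between them (of the kind FXR binds).
Cyp8b1 chr9:121916306-121916555, minus strand: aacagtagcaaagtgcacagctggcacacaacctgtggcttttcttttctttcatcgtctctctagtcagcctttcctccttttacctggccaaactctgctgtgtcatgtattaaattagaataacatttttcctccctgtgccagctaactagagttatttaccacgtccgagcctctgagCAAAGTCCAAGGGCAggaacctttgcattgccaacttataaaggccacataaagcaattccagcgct
Nr0b2 chr4:133553126-133553375, plus strand: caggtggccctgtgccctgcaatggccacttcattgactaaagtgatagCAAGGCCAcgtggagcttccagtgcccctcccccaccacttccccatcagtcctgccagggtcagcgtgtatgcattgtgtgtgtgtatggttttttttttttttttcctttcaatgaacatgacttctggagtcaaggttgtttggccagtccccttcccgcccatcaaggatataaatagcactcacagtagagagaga
Abcb11 chr2:69342617-69342866, minus strand: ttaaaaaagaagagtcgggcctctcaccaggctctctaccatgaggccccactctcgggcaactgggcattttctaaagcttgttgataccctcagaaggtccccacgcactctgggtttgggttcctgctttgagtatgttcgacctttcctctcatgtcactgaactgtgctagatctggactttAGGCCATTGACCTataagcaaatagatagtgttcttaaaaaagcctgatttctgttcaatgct

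In Cyp8b1 the HNF4A letters lie 67 to 59 bases before the start and run into the NR5A2 letters CAAGGGCA at 60 to 53, so the capitals hold both patterns with 2 bases in common. In Nr0b2 the capitals are 1 NR5A2 match 201 to 194 bases before the start, and in Abcb11 they are 1 inverted repeat 63 to 51 bases before it. Of 32851 RefSeq windows of this length, 5.53% hold CAAGGNCA, 0.384% hold CAAAGTCCA and 0.0852% hold the inverted repeat, on either strand. None of the 3 patterns was found in the windows of Cyp27a1 and Slc10a1, which says only that these letters are not there. A match is a description of the sequence and not a bound site.

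Cyp7a1 was not called in any comparison, and its differences had the largest standard errors of the 10 genes. Its levels were 0.93, 1.66, -0.59 and 0.52 in LFD, 0.27, 0.28, -0.46 and 0.31 in HFD, 2.13, 0.97, 1.05, -2.26 and 1.47 in LFD-MTX50 and -0.97, -0.68, -0.10, -0.13 and 0.84 in HFD-MTX50 mice. LFD-MTX50 holds both the highest liver (mouse 1) and the lowest (mouse 4) of the 18, and all groups overlapped. The means ± SD ran from 0.67 ± 1.70 in LFD-MTX50 and 0.63 ± 0.94 in LFD through 0.10 ± 0.37 in HFD to -0.21 ± 0.69 in HFD-MTX50, and no neighbours in that order differed beyond their spread. The methotrexate difference was 0.05 ± 0.67 on the low fat diet (95% interval -1.37 to 1.46, limma adjusted p = 0.964) and -0.31 ± 0.67 on the high fat diet (95% interval -1.72 to 1.11, limma adjusted p = 0.783). Both intervals are wide enough to hold a 2-fold change in either direction, so these arrays do not show that Cyp7a1 was unaltered. HFD vs LFD gave -0.53 ± 0.71 (limma adjusted p = 0.584). HFD-MTX50 vs LFD-MTX50 gave -0.88 ± 0.63 (limma adjusted p = 0.335), and without LFD-MTX50 mouse 4 it became -1.62 with limma adjusted p = 0.0246.

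Cyp39a1, an oxysterol hydroxylase, was higher with methotrexate on the low fat diet. Its levels were 0.96, 0.61, 0.81 and 0.91 in LFD and 2.63, 2.45, 3.41, 2.49 and 3.77 in LFD-MTX50 mice. They were 0.33, 0.42, 0.10 and 0.12 in HFD and 2.50, 3.75, 0.82, 0.27 and 1.51 in HFD-MTX50 mice. On the low fat diet every treated liver lay above every untreated one. On the high fat diet mice 1, 2 and 5 lay well above the HFD range, mouse 3 lay above it by less, and mouse 4 lay inside it. The means ± SD fell in the order 2.95 ± 0.60 (LFD-MTX50), 1.77 ± 1.39 (HFD-MTX50), 0.83 ± 0.16 (LFD) and 0.24 ± 0.16 (HFD).

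The Cyp39a1 rise in LFD-MTX50 vs LFD was 2.12 ± 0.50, or 4.36-fold (limma adjusted p = 0.00807), and under a random slide block it was 2.24 with limma adjusted p = 0.0662. HFD-MTX50 vs HFD gave 1.53 ± 0.50, or 2.89-fold, which missed the threshold (limma adjusted p = 0.0573). That value was not alike on all slides, and as each slide holds different mice, slide and mouse cannot be told apart here. HFD-MTX50 mice 1 and 2 share a slide with HFD mice 3 and 4, and within it the difference was 3.02 ± 0.42 (limma adjusted p = 0.00354), whereas the mean difference between the other 3 HFD-MTX50 and 2 HFD mice was 0.49. Under a random slide block the value was 1.99 with limma adjusted p = 0.0226. The call was also gained without HFD-MTX50 mouse 3 (limma adjusted p = 0.0430) or mouse 4 (limma adjusted p = 0.0223). The methotrexate difference was not shown to depend on diet (-0.59 ± 0.71, 95% interval -2.10 to 0.91, limma adjusted p = 0.548). HFD-MTX50 vs LFD-MTX50 gave -1.18 ± 0.47 (limma adjusted p = 0.0922), and -1.67 without HFD-MTX50 mouse 2 (limma adjusted p = 0.0113). All 4 HFD livers lay below all 4 LFD livers (-0.58 ± 0.53), but the spread that the 4 groups share left this uncalled (limma adjusted p = 0.410), while a fit with those 2 groups alone gave limma adjusted p = 0.00822.

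**Figure D2:**
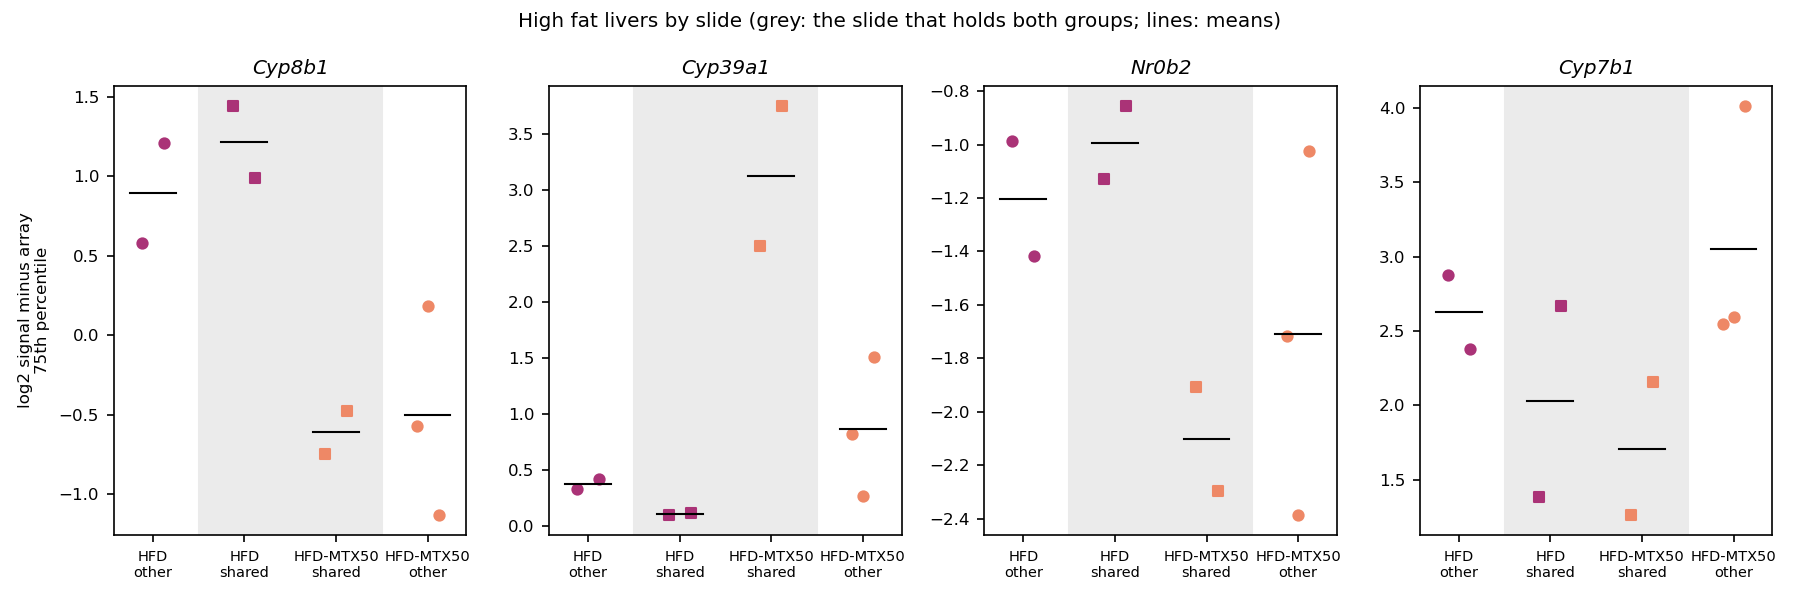
Levels of Cyp8b1, Cyp39a1, Nr0b2 and Cyp7b1 (log2 signal minus the array's 75th percentile) in HFD and HFD-MTX50 livers, split into the slide that holds both groups (squares, grey band) and the other slides (circles); points are mice and lines the means. The Cyp8b1 fall has about the same size on the shared slide (-1.83) and between the others (-1.40), and the Cyp39a1 difference is larger on the shared slide (3.02 against 0.49).

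Cyp7b1, the oxysterol hydroxylase of the alternative route, had levels of 2.60, 2.81, 2.40 and 3.16 in LFD and 1.40, 1.38, 2.04, 2.18 and 1.07 in LFD-MTX50 mice. They were 2.88, 2.38, 1.38 and 2.67 in HFD and 1.27, 2.15, 2.55, 2.59 and 4.01 in HFD-MTX50 mice. All 5 LFD-MTX50 livers lay below all 4 LFD livers, while the high fat groups overlapped and HFD-MTX50 held the highest level of all 18 (mouse 5). The LFD-MTX50 difference of -1.13 ± 0.42, a 2.18-fold decrease in the means, lay just above the threshold (limma adjusted p = 0.0533). Of 15 alternatives, 7 put it below and 8 did not. A random slide block was among the 8, with Cyp7b1 only at an unadjusted limma p below 0.05, and these 2 groups share no slide. Leaving out LFD-MTX50 mouse 4, HFD mouse 3 or HFD-MTX50 mouse 1 or 5 also put it below (limma adjusted p 0.0193 to 0.0437). Leaving out any other mouse did not (limma adjusted p up to 0.127). HFD-MTX50 vs HFD gave 0.19 ± 0.42 (limma adjusted p = 0.792), and -0.32 ± 0.52 within the shared slide. The difference between the methotrexate effects was 1.31 ± 0.60 (95% interval 0.05 to 2.57, limma adjusted p = 0.106), and without HFD-MTX50 mouse 1 it was 1.62 with limma adjusted p = 0.0298. In HFD-MTX50 vs LFD-MTX50 Cyp7b1 gave 0.90 ± 0.40 (limma adjusted p = 0.120), and without HFD-MTX50 mouse 1 1.21 with limma adjusted p = 0.0271. HFD vs LFD gave -0.41 ± 0.44 (limma adjusted p = 0.492).

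Cyp27a1, the mitochondrial side chain hydroxylase, had levels of 0.98, 0.78, 0.99 and 1.03 in LFD and 0.74, 1.19, 1.13, 1.09 and 0.77 in LFD-MTX50 mice. They were 0.75, 0.53, 0.55 and 0.78 in HFD and -0.01, 0.24, 0.51, 0.67 and 0.49 in HFD-MTX50 mice. Every HFD-MTX50 liver lay below every LFD-MTX50 liver, and the difference of -0.60 ± 0.13, a 1.52-fold lower level, was called (limma adjusted p = 0.00972). Under a random slide block its limma adjusted p was 0.0935, and with only those 2 groups in the fit it was 0.0669. No other comparison of Cyp27a1 was called: HFD vs LFD gave -0.29 ± 0.14 (limma adjusted p = 0.130, and 0.0422 with those 2 groups alone), HFD-MTX50 vs HFD gave -0.27 ± 0.14 (limma adjusted p = 0.182) and LFD-MTX50 vs LFD gave 0.04 ± 0.14 (limma adjusted p = 0.848). Within the shared slide the HFD-MTX50 vs HFD difference was -0.55 ± 0.16 (limma adjusted p = 0.0559).

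Of the conjugating enzymes, Baat was called in no comparison of the 4 groups fitted together. Its levels were 1.73, 1.83, 1.63 and 1.96 in LFD, 1.82, 1.22, 1.60, 1.10 and 1.27 in LFD-MTX50, 1.62, 1.42, 1.08 and 1.25 in HFD and 0.80, 1.18, 1.51, 1.40 and 1.80 in HFD-MTX50 mice. All 4 HFD livers lay below all 4 LFD livers, with the nearest pair almost touching, and the difference of -0.44 ± 0.20 missed the threshold (limma adjusted p = 0.0950), while a fit with those 2 groups alone gave limma adjusted p = 0.0287. LFD-MTX50 vs LFD gave -0.38 ± 0.19 (limma adjusted p = 0.122) and HFD-MTX50 vs HFD gave -0.01 ± 0.19 (95% interval -0.40 to 0.38). HFD-MTX50 vs LFD-MTX50 gave -0.06 ± 0.17 (limma adjusted p = 0.824).

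Slc27a5, the bile acid coenzyme A ligase, was read on the brighter of its 2 probes. There its levels were 5.91, 5.97, 5.83 and 6.14 in LFD and 6.34, 6.23, 6.46, 6.37 and 6.02 in LFD-MTX50 mice. They were 5.78, 5.86, 5.66 and 5.79 in HFD and 5.54, 5.68, 5.64, 5.70 and 6.18 in HFD-MTX50 mice. On this probe HFD-MTX50 mouse 5 stood apart from the 4 others of its group and alone reached into the LFD-MTX50 range. On the dimmer probe the HFD-MTX50 levels were 4.28, 4.43, 4.61, 4.48 and 4.73, so mouse 5 was highest there but lay close to mouse 3. The liver of HFD-MTX50 mouse 5 stood apart in inflammatory genes, chosen here after their values were seen. Its acute phase transcript Saa1 was at 8.49 against 3.28 to 4.85 in the other 4 HFD-MTX50 livers, Orm1 at 6.08 against 2.90 to 3.77 and the neutrophil marker Mpo at 2.76 against -3.05 to -1.79. S100a8, S100a9 and Ngp were also highest in this liver of its group. The neutrophil marker Elane, at 6.11, lay inside the range of the others (5.47 to 6.36). Their part in the values of this mouse was not tested. HFD-MTX50 was below LFD-MTX50 by -0.54 ± 0.12 (limma adjusted p = 0.0103, 0.105 under a random slide block and 0.0689 with those 2 groups alone), and the dimmer probe gave -0.41 ± 0.11 (limma adjusted p = 0.0251, and 0.160 under the slide block). In HFD vs LFD the dimmer probe was called lower (-0.38 ± 0.13, limma adjusted p = 0.0354, and 0.146 under the slide block), whereas the brighter one was not (-0.19 ± 0.13, limma adjusted p = 0.272). LFD-MTX50 vs LFD gave 0.32 ± 0.12 on the brighter probe (limma adjusted p = 0.0592) and HFD-MTX50 vs HFD gave -0.02 ± 0.12 (limma adjusted p = 0.912). The low fat difference passed the threshold without LFD-MTX50 mouse 5 (limma adjusted p = 0.0320) or HFD-MTX50 mouse 5 (limma adjusted p = 0.0205), and without the latter the difference between the methotrexate effects moved from -0.35 (limma adjusted p = 0.145) to -0.45 (limma adjusted p = 0.0300).

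Nr0b2 had levels of -0.92, -1.55, -0.73 and -0.98 in LFD and -2.06, -1.68, -1.20, -0.82 and -2.31 in LFD-MTX50 mice. They were -0.99, -1.42, -1.13 and -0.86 in HFD and -1.91, -2.30, -1.72, -2.38 and -1.02 in HFD-MTX50 mice. In HFD-MTX50, 4 of 5 livers lay below every HFD liver and mouse 5 lay within the HFD range. Neither methotrexate difference was called: it was -0.77 ± 0.30 on the high fat diet (limma adjusted p = 0.0961, and -0.98 with limma adjusted p = 0.0515 without mouse 5) and -0.57 ± 0.30 on the low fat diet (limma adjusted p = 0.157). Within the shared slide the high fat value was -1.11 ± 0.43 (limma adjusted p = 0.125). HFD vs LFD gave -0.05 ± 0.32 (95% interval -0.72 to 0.62, limma adjusted p = 0.916) and HFD-MTX50 vs LFD-MTX50 gave -0.25 ± 0.28 (limma adjusted p = 0.554).

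Abcb11, the export pump of the canalicular membrane, was the member called lower with the high fat diet when each gene was read on its brightest probe. The dimmer probes of Slc10a1 and Slc27a5 were also called lower there. Its levels were 5.01, 4.80, 4.98 and 5.16 in LFD and 4.61, 4.19, 4.04 and 4.10 in HFD mice. They were 4.17, 4.99, 4.29, 5.20 and 4.37 in LFD-MTX50 and 4.43, 3.94, 4.39, 4.52 and 4.83 in HFD-MTX50 mice. Every HFD liver lay below every LFD liver, while the treated groups overlapped each other and both untreated groups. HFD vs LFD gave -0.75 ± 0.22, a 1.69-fold fall (limma adjusted p = 0.0212). The call was lost under quantile normalization (-0.51, limma adjusted p = 0.110) and under a random slide block (-0.71, limma adjusted p = 0.138). It was also lost without LFD mouse 4 (limma adjusted p = 0.0569), HFD mouse 3 (limma adjusted p = 0.0709) or HFD mouse 4 (limma adjusted p = 0.0627). Methotrexate gave -0.38 ± 0.21 on the low fat diet (limma adjusted p = 0.173) and 0.19 ± 0.21 on the high fat diet (limma adjusted p = 0.561). Within the shared slide the latter was 0.12 ± 0.30. HFD-MTX50 vs LFD-MTX50 gave -0.18 ± 0.20 (limma adjusted p = 0.540).

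Slc10a1, the uptake carrier also called NTCP, gave different answers on its 2 probes. On the brighter probe its levels were 7.51, 7.50, 7.39 and 7.58 in LFD, 7.83, 7.76, 7.91, 7.69 and 7.65 in LFD-MTX50, 7.25, 7.44, 7.35 and 7.52 in HFD and 7.22, 7.46, 7.42, 7.28 and 7.62 in HFD-MTX50 mice. The LFD-MTX50 livers lay above all others on this probe. LFD-MTX50 vs LFD gave 0.27 ± 0.10, a 1.21-fold rise (limma adjusted p = 0.0427), and HFD-MTX50 vs LFD-MTX50 gave -0.37 ± 0.09 (limma adjusted p = 0.0164). The first of these was lost with the mean of both probes (0.06, limma adjusted p = 0.595), under a replicate block (limma adjusted p = 0.0827), under median scaling (0.17, limma adjusted p = 0.190), under a random slide block (limma adjusted p = 0.242) and without any 1 of LFD mice 1, 2, 3 or 4, LFD-MTX50 mice 1, 2 or 3, or HFD mouse 2 (limma adjusted p 0.0529 to 0.116). The second was lost under a random slide block (limma adjusted p = 0.124) and with only those 2 groups in the fit (limma adjusted p = 0.0819).

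On the dimmer probe the Slc10a1 levels were 2.99, 3.38, 3.08 and 2.92 in LFD, 2.89, 3.10, 2.78, 2.87 and 3.05 in LFD-MTX50, 2.59, 2.40, 2.44 and 2.25 in HFD and 1.88, 2.35, 2.11, 2.49 and 1.96 in HFD-MTX50 mice. Here both high fat groups lay below both low fat groups without overlap. HFD vs LFD gave -0.67 ± 0.14 (limma adjusted p = 0.00544, and 0.0633 under a random slide block) against -0.11 ± 0.10 on the brighter probe (limma adjusted p = 0.437), and HFD-MTX50 vs LFD-MTX50 gave -0.78 ± 0.13 (limma adjusted p = 0.00430, and 0.0716 under a random slide block). LFD-MTX50 vs LFD gave -0.15 ± 0.13 (limma adjusted p = 0.389), so the rise on the brighter probe was not seen on the dimmer one. What part of the transcript each probe reads was not analysed here.

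**Figure D3:**
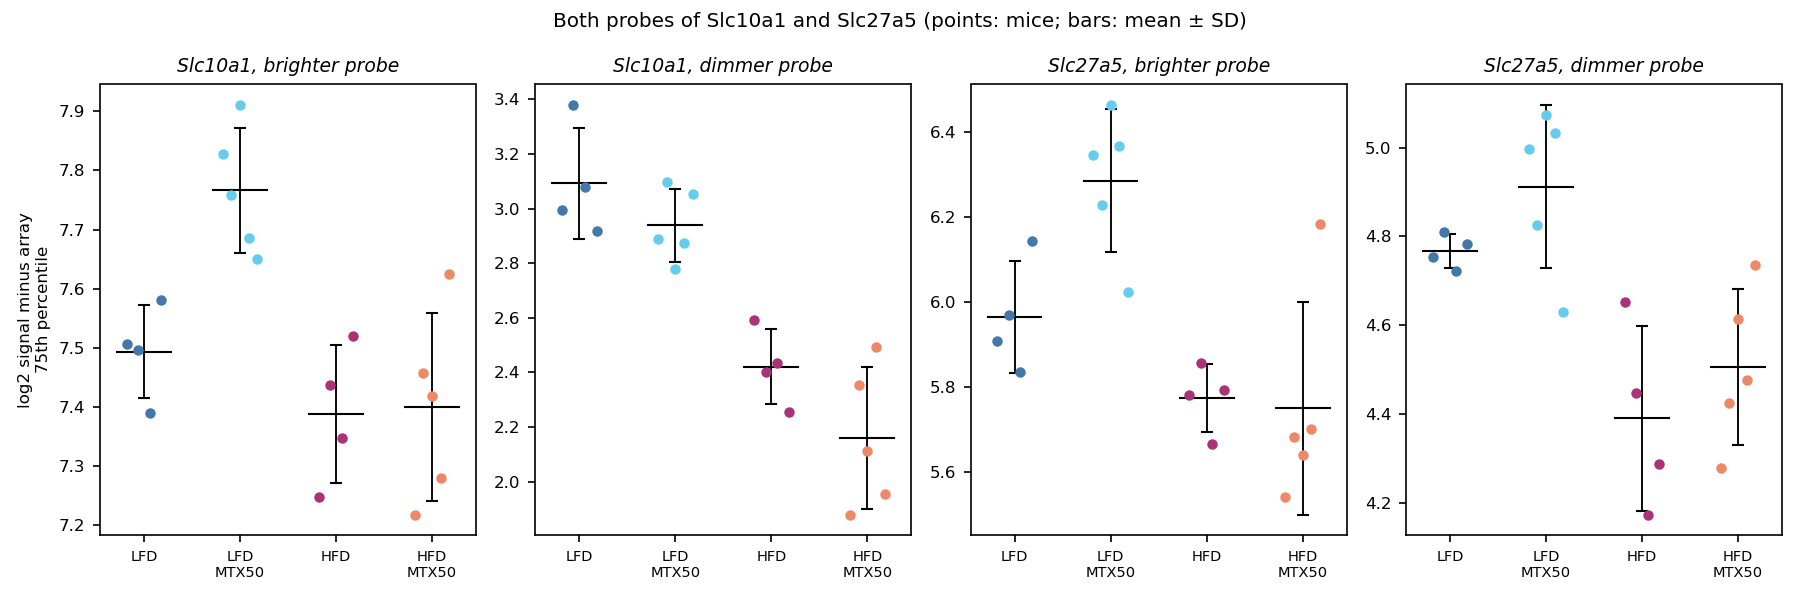
Levels of Slc10a1 and Slc27a5 on the brighter and the dimmer of their 2 probes (log2 signal minus the array's 75th percentile, its own axis in each panel) in the 4 groups; points are mice and bars the mean ± SD. The dimmer Slc10a1 probe is lower in both high fat groups than in both low fat groups, and the brighter one is highest in LFD-MTX50.

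Counted over the 10 genes, on the brightest probe of each, 1 was called in HFD vs LFD (Abcb11, lower), where 28.3% of the 19597 genes tested were called, and 3 had groups that did not overlap (Cyp39a1, Baat and Abcb11, all lower), against 40.3% of all genes. In HFD-MTX50 vs HFD 1 was called (Cyp8b1, lower) against 11% of all genes, and 1 did not overlap against 11.4%. Within the shared slide 2 were called (Cyp8b1 and Cyp39a1) against 7.29%. In LFD-MTX50 vs LFD 3 were called (Cyp39a1 and Slc10a1 higher, Cyp8b1 lower) against 28.1%, and 4 did not overlap, with Cyp7b1 added, against 29.1%. In HFD-MTX50 vs LFD-MTX50 3 were called (Cyp27a1, Slc27a5 and Slc10a1, all lower) against 16.1%, and 2 did not overlap against 6.13%. The difference between the methotrexate effects was called by limma in 0 of the 10 genes against 26.8% of all genes, with 1 (Cyp7b1) at an unadjusted p below 0.05. As shares of the 10 genes, 10% in HFD vs LFD lay below the share of all genes, 30% in LFD-MTX50 vs LFD and 10% in HFD-MTX50 vs HFD lay near it, and 30% in HFD-MTX50 vs LFD-MTX50 lay above it on 3 genes. The median difference over the 10 genes was -0.35 in HFD vs LFD (0.08 over all genes), -0.02 in HFD-MTX50 vs HFD (-0.04), -0.17 in LFD-MTX50 vs LFD (0.10) and -0.31 in HFD-MTX50 vs LFD-MTX50 (-0.06). The comparisons share groups, so their values for the members are not independent of each other.

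**Figure D4:**
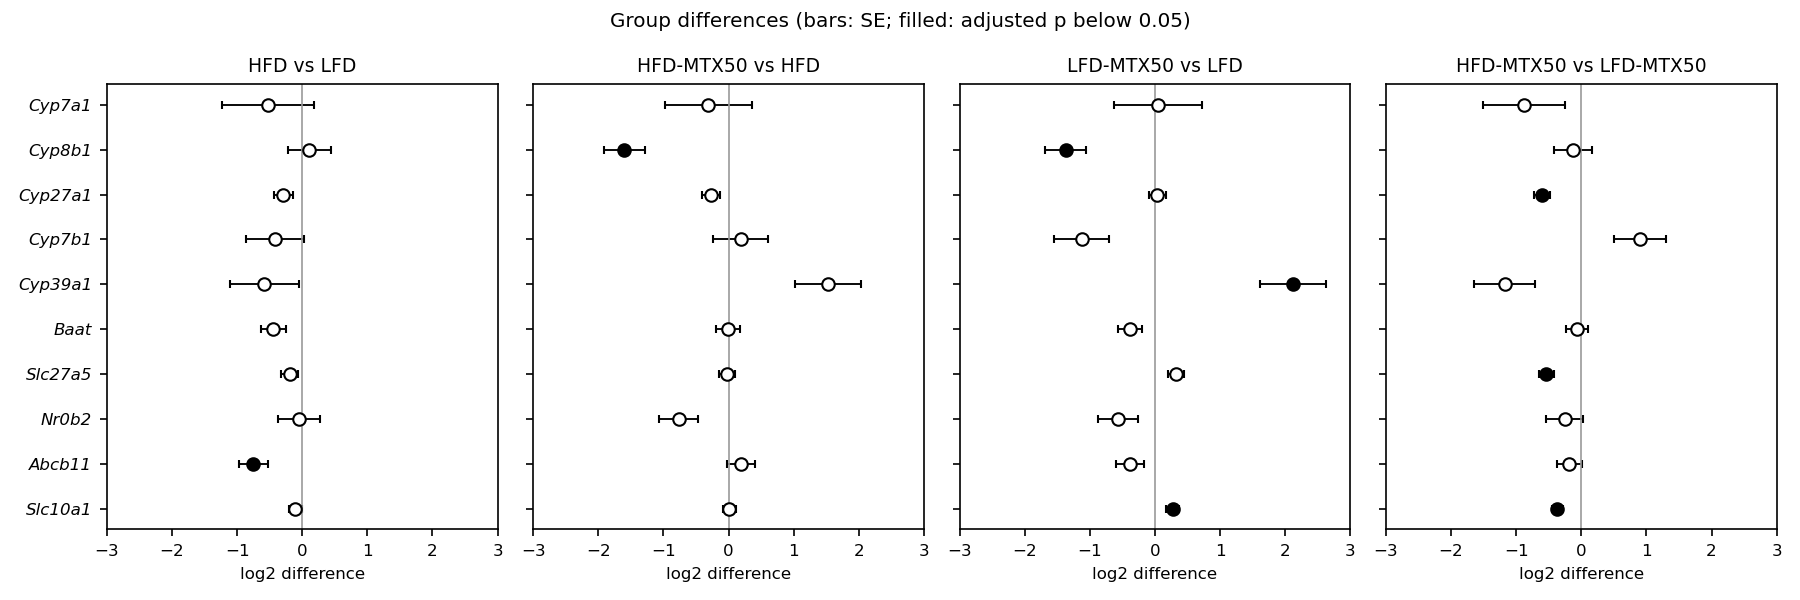
Log2 difference between group means for the 10 genes in the 4 comparisons, with bars of 1 standard error; filled points have a limma adjusted p below 0.05. Cyp8b1 is filled on the low side in both methotrexate comparisons, Cyp39a1 is filled in LFD-MTX50 vs LFD only, and Abcb11 is filled in HFD vs LFD only.

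Markers of liver cells and of other cells moved with some of these groups. Of all genes, 28.3% were called in HFD vs LFD and 11% in HFD-MTX50 vs HFD. The shares were 28.1% in LFD-MTX50 vs LFD and 16.1% in HFD-MTX50 vs LFD-MTX50. In HFD-MTX50 vs LFD-MTX50, 4 of the 8 hepatocyte markers were also called lower and 0 higher, and the summed signal of the 8, relative to the 75th percentile, was 655 to 1003 in HFD-MTX50 and 937 to 1088 in LFD-MTX50 mice. The summed signal of the 4 measured erythroid markers was 1.21 to 1.79 in LFD-MTX50 against 30.2 to 47.4 in LFD, and 1.57 to 159 in HFD-MTX50 against 16.4 to 41.8 in HFD mice. That of the 7 cholangiocyte markers, the cells that line the bile ducts, was 1.34 to 1.78 in LFD, 2.07 to 2.34 in LFD-MTX50, 1.26 to 2.11 in HFD and 1.36 to 2.03 in HFD-MTX50 mice, with 2 called higher and 0 lower in LFD-MTX50 vs LFD. The sum of the 4 adipocyte markers was 0.513 to 0.581 in LFD, 0.859 to 2.31 in HFD, 0.825 to 1.19 in LFD-MTX50 and 0.721 to 1.16 in HFD-MTX50 mice, and in LFD-MTX50 vs LFD 3 of the 4 were called higher, as were 3 in HFD vs LFD. Lep and Cidec made up most of that sum. Plin1, Lep and Cidec had higher means in HFD than in LFD, while Adipoq was at -4.50 and -4.46. In HFD-MTX50 Adipoq was at -3.62 and the means of the others lay below HFD, with 1 marker called higher and 1 lower against HFD. The summed signal of the 5 intestinal epithelium markers was 12.3 to 18.5 in LFD against 4.26 to 8.99 in LFD-MTX50 mice. On the high fat diet it was 21.1 or more without methotrexate and 6.56 to 20.6 with it. Fabp2 made up most of this sum, and on the low fat diet its mean level was 3.79 without methotrexate and 2.15 with it. Vil1 also had a lower mean in LFD-MTX50 than in LFD. Fabp6 (-3.79 against -4.40) and, by less, Muc2 and Slc10a2 had higher ones. Of these 5 markers, 1 was called higher and 1 lower in LFD-MTX50 vs LFD. For the 6 markers of Kupffer cells and macrophages the sum was 21.2 to 39.1 in HFD and 40.2 to 52.1 in HFD-MTX50 mice without overlap, although 0 of the 6 were called there by limma (3 at an unadjusted p below 0.05). On the low fat diet that sum was 28.9 to 44.2 in LFD and 23.3 to 30.0 in LFD-MTX50 mice, with 0 markers called higher and 1 lower. The 5 measured neutrophil markers summed to 68.6 to 82.1 in LFD, 50.5 to 57.4 in LFD-MTX50, 47.6 to 67.8 in HFD and 45.0 to 122 in HFD-MTX50 mice. Elane made up most of that sum, with a mean level of 6.25 in LFD and 5.70 in LFD-MTX50. S100a8, S100a9, Mpo and Ngp had higher means in LFD-MTX50 than in LFD, and 1 marker was called higher and 1 lower there. The sums of the pancreatic acinar and stellate cell markers overlapped in all 4 comparisons. No marker that was measured stood at 0. Their part in the results was not tested.

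Of the 10 other synthesis enzymes listed for the pathway, 1 was lower and 0 higher in HFD vs LFD, 1 was higher and 2 lower in HFD-MTX50 vs HFD, 2 were higher and 4 lower in LFD-MTX50 vs LFD, and 1 was higher and 2 lower in HFD-MTX50 vs LFD-MTX50. These were 10%, 30%, 60% and 30% of the list in that order, against 28.3%, 11%, 28.1% and 16.1% of all genes. Cyp2c70, which makes muricholic acids in mice, fell by 0.94 in HFD vs LFD (limma adjusted p = 0.0110, and 0.0884 under the slide block). It rose with methotrexate by 0.94 on the high fat diet (limma adjusted p = 0.0189) and by 1.10 on the low fat diet (limma adjusted p = 0.00408, and 0.0675 under the slide block), the opposite direction to Cyp8b1. Its levels were 3.94, 4.08, 4.16 and 4.38 in LFD, 5.14, 5.09, 5.05, 5.34 and 5.57 in LFD-MTX50, 3.74, 2.92, 3.11 and 3.05 in HFD and 4.59, 3.86, 3.85, 3.65 and 4.79 in HFD-MTX50 mice. All 5 LFD-MTX50 livers lay above all LFD livers, and the high fat groups overlapped.

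Of 5 listed genes of peroxisomal side chain shortening, grouped here after their values were seen, Abcd3, Amacr and Hsd17b4 were called lower in LFD-MTX50 vs LFD. Of all genes, 28.1% were called there. Acox2 (0.22 ± 0.11, limma adjusted p = 0.146) and Scp2 (-0.35 ± 0.15, limma adjusted p = 0.0888) were not called, and Acox2 lay the other way. Abcd3, which carries bile acid precursors into peroxisomes, gave -1.16 ± 0.18 (limma adjusted p = 0.00121), and on the high fat diet -0.62 ± 0.18 (limma adjusted p = 0.0388). The racemase Amacr gave -0.82 ± 0.17 (limma adjusted p = 0.00514, and 0.0593 under the slide block) and Hsd17b4, the multifunctional enzyme of the same route, gave -0.60 ± 0.15 (limma adjusted p = 0.00987, and 0.104 under the slide block) in LFD-MTX50 vs LFD. Ch25h, which makes an oxysterol outside the main routes, gave 1.35 ± 0.34 there (limma adjusted p = 0.0103, and 0.0847 under the slide block). Cyp46a1 gave -0.40 ± 0.11 in HFD-MTX50 vs HFD (limma adjusted p = 0.0300).

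Of 19 other transporters, 18 were measured, and 1 was higher and 2 lower in HFD vs LFD, 0 in either direction by limma in HFD-MTX50 vs HFD (3 at an unadjusted p below 0.05), 2 higher and 2 lower in LFD-MTX50 vs LFD, and 1 higher and 3 lower in HFD-MTX50 vs LFD-MTX50. In that order 16.7%, 0%, 22.2% and 22.2% of the measured list were called, against 28.3%, 11%, 28.1% and 16.1% of all genes. The uptake carriers Slco1a1 and Slco1a4 moved in opposite directions with methotrexate on the low fat diet, by -2.29 ± 0.55 (limma adjusted p = 0.00899, and 0.0756 under the slide block) and 1.18 ± 0.17 (limma adjusted p = 8.79e-04). The efflux pump Abcg2 fell by 1.48 (limma adjusted p = 6.62e-05) and Abcb1a rose by 0.60 (limma adjusted p = 0.00225). In HFD vs LFD, Atp8b1 and Tmem30a, which together form a flippase of the canalicular membrane, gave -0.55 ± 0.14 (limma adjusted p = 0.0132, and 0.110 under the slide block) and -0.48 ± 0.14 (limma adjusted p = 0.0219, and 0.153 under the slide block).

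Of 15 sensors and regulators, 3 were higher and 4 lower in HFD vs LFD, 3 higher and 1 lower in HFD-MTX50 vs HFD, 4 higher and 1 lower in LFD-MTX50 vs LFD, and 0 higher and 5 lower in HFD-MTX50 vs LFD-MTX50. These were 46.7%, 26.7%, 33.3% and 33.3% of the list in that order, against 28.3%, 11%, 28.1% and 16.1% of all genes. Nr1h4, which encodes FXR, was called in none of the 5 tests. Hnf4a, an activator of Cyp8b1 and Cyp7a1, fell by 0.55 in HFD vs LFD (limma adjusted p = 0.0178, and 0.110 under the slide block) and rose by 0.51 in HFD-MTX50 vs HFD (limma adjusted p = 0.0381). Nr5a2, which binds the CAAGGNCA letters, rose by 0.32 in HFD-MTX50 vs HFD (limma adjusted p = 0.0410, and 0.0519 under the slide block) and by 0.34 in LFD-MTX50 vs LFD (limma adjusted p = 0.0168, and 0.124 under the slide block). The coactivator Ppargc1a fell by 1.20 in HFD vs LFD (limma adjusted p = 0.00528, and 0.0512 under the slide block) and rose by 0.76 in HFD-MTX50 vs HFD (limma adjusted p = 0.0482). The hepatic receptor Fgfr4 for the intestinal hormone that represses bile acid synthesis gave -0.39 ± 0.12 in HFD vs LFD (limma adjusted p = 0.0279, and 0.162 under the slide block). The 5 lower in HFD-MTX50 vs LFD-MTX50 were Vdr (-1.55), Ppargc1a (-0.74), Klb (-0.63), Fgfr4 (-0.34) and Nr5a2 (-0.29), at limma adjusted p 0.0210 to 0.0482. Fgf15 was called higher by 0.98 in HFD vs LFD (limma adjusted p = 0.0235) and by 0.79 in LFD-MTX50 vs LFD (limma adjusted p = 0.0440). Neither the 5 calls nor those of Fgf15 held under the slide block.

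Smaller lists were counted as well. Of 3 measured bile acid detoxification genes, Cyp2b10 alone was called, higher by 2.24 ± 0.73 in HFD vs LFD (limma adjusted p = 0.0322, and 0.174 under the slide block). That was 33.3% of the list, against 28.3% of all genes. Of 13 clock genes, 2 were higher and 3 lower in HFD vs LFD, 3 higher and 2 lower in LFD-MTX50 vs LFD, and by limma 0 in HFD-MTX50 vs HFD (2 at an unadjusted p below 0.05) and 0 in HFD-MTX50 vs LFD-MTX50 (1 at an unadjusted p below 0.05). These were 38.5%, 38.5%, 0% and 0% of the list in that order, against 28.3%, 28.1%, 11% and 16.1% of all genes. Of 12 acute phase genes, 1 was higher and 3 lower in HFD vs LFD, 5 were higher and 0 lower in HFD-MTX50 vs HFD, 4 higher and 0 lower in LFD-MTX50 vs LFD, and 3 higher and 1 lower in HFD-MTX50 vs LFD-MTX50. These were 33.3%, 41.7%, 33.3% and 33.3% of the list in that order, against 28.3%, 11%, 28.1% and 16.1% of all genes.

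The genes whose level ran most like a member's over the 18 arrays were sought among 17525 genes for the 3 members named for this. They are a description across arrays that share groups and slides. For Cyp7a1 they were Mblac2 (Pearson correlation 0.898), Acy1 (0.816), Snupn (0.812), Mpv17l (0.765) and Glmn (0.765). For Nr0b2 they were Psmc4 (0.844), Slc25a25 (0.840), Kynu (0.835), Higd2a (0.816) and Psmd11 (0.811). For Cyp7b1 they were Srrm2 (0.866), Pdf (0.863), C6 (0.862), C9 (0.860) and Dnajc11 (0.854).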

How the data were processed

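Liver RNA was labelled with Cy3 and hybridized to 1-colour Agilent mouse arrays. Per the file headers, the authors scanned the arrays and ran Agilent Feature Extraction 10.7.3.1, so each deposited value is a linear intensity from which background and spatial trends within the array were removed. The value table of the series holds the background-subtracted signal, rounded, rather than the processed signal used here, and served as an alternative.

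From the log2 of each processed signal the log2 of the 75th percentile over the same array was subtracted. Spots marked as outliers (124 to 294 per array) were left out, and spots of a probe were averaged. Probes above background on at least 4 of 18 arrays were kept (35738, for 19597 genes). Probes were named through RefSeq, which gave a gene to 28025 of 39429 (71.1%). A gene was read on its brightest probe. limma 3.58.1 in R 4.3.3 fitted all 4 groups together, and p-values were adjusted by Benjamini-Hochberg. The number of arrays limits the precision. Mice were housed singly from before dosing, but whether mice of a group were littermates is not given in the sources used here, and p-values measure only the spread between these mice. Named genes are all members, up to 5 called genes per list and comparison, and the 5 genes most like Cyp7a1, Nr0b2 and Cyp7b1. Members and lists were chosen with earlier results of these data known. Promoters came from RefSeq (GRCm38.p6). Alternatives covered scaling, background correction, filters, slide and replicate blocks, other tests and leaving out each array.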

Additional observations from a re-analysis of the deposited data

Results flagged for a closer look

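In 40 combinations of member and group, 3 held a mouse far from the others of its group, where chance gives about 1 in 20. Cyp7a1 stood at -2.26 in LFD-MTX50 mouse 4 and at -0.46 in HFD mouse 3, each the lowest of its group. Slc27a5 stood at 6.18 on its brighter probe in HFD-MTX50 mouse 5, the highest of its group. On the dimmer probe this mouse was at 4.73 and HFD-MTX50 mouse 3 at 4.61.

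Of the genes in the pathway, clock and acute phase lists, 11 had a methotrexate effect that differed between the diets by limma's interaction test. They are 11 of 71 measured (15.5%), against 26.8% of all genes, and under a random slide block 3 of the 11 were called (Slco1a4, Abcg2 and Abcb1a). The clock genes differed by 1.66 (Cry1), -1.45 (Tef), -1.39 (Nr1d1), 0.83 (Clock) and -0.69 (Npas2), as the effect on the high fat diet minus that on the low fat diet on the log2 scale. Transporters differed by -1.38 (Slco1a4), 1.10 (Abcg2) and -0.80 (Abcb1a). Regulators differed by -1.40 (Fgf15), 0.55 (Nr1h3) and -0.51 (Gpbar1).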

How the results depend on the processing

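limma called 1 member for HFD vs LFD, 1 for HFD-MTX50 vs HFD, 3 in LFD-MTX50 vs LFD, 3 in HFD-MTX50 vs LFD-MTX50 and 0 in the difference between the methotrexate effects, and no value that was called changed sign. HFD vs LFD gave 0 under quantile normalization, under a random slide block and with either 2-fold rule (1 or 2 members at an unadjusted p below 0.05), 2 with the mean of a gene's probes, and 4 with only the groups compared or the methods' t-test. In that order these settings called 19.3%, 1.94%, 2.86% and 2.87%, 27.6%, 41.7% and 35.7% of all genes. HFD-MTX50 vs HFD gave 2 under median scaling, normexp with negative controls (chosen after seeing the data), probes above background on all arrays, the slide as a random block, the shared slide alone and an unadjusted p up to 0.015 with a 2-fold change, and 0 with only the groups compared, the slide as a fixed block and the methods' t-test, where 3, 4 and 2 members had an unadjusted p below 0.05. The settings that gave 2 called 11.5%, 9.73%, 12.7%, 9.48%, 7.29% and 1.32% of all genes in that order. LFD-MTX50 vs LFD gave 5 under normexp, the value table and only the groups compared, and 0 under a random slide block, where 3 had an unadjusted p below 0.05. In that order these settings called 29.1%, 27.4%, 31.7% and 1.73% of all genes. HFD-MTX50 vs LFD-MTX50 gave 0 with only the groups compared, the slide as a random block, the methods' t-test and either 2-fold rule, with 3 to 5 at an unadjusted p below 0.05. In that order these settings called 0.0459%, 0.0919%, 0.577%, 2.56% and 2.75% of all genes. The difference gave 2 under quantile normalization, where 17% of all genes were called. Leaving out each mouse gave 0 to 1, 1 to 2, 2 to 5, 3 to 4 and 0 to 1. The mice that moved a count by over 1.5 times were LFD mouse 4 and HFD mice 3 and 4 (HFD vs LFD 0), HFD-MTX50 mice 3 and 4 (HFD-MTX50 vs HFD 2), HFD-MTX50 mouse 5 (LFD-MTX50 vs LFD 5, difference 1) and HFD-MTX50 mouse 1 (difference 1). The causes were not tested.

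Over all genes, HFD-MTX50 vs HFD called 2148, against 1013 with the replicate block, 1429 within the shared slide, and 0 with the slide as a fixed block, only the groups compared and the methods' t-test, where 3945, 4951 and 4607 genes had an unadjusted p below 0.05. With the slide as a random block (correlation 0.262) HFD vs LFD called 380 rather than 5555, LFD-MTX50 vs LFD 340 rather than 5503, HFD-MTX50 vs LFD-MTX50 18 rather than 3158 and the difference 1249 rather than 5243. HFD-MTX50 vs LFD-MTX50 called 9 with only the groups compared and 113 with the methods' t-test. The replicate block left the member counts at 1, 1, 3, 3 and 0, and moved Cyp7b1 in LFD-MTX50 vs LFD to limma adjusted p = 0.0486 and Slc10a1 to 0.0827. Deviations of mice with the same number had correlations of -0.31 to 0.25, above 0.1 in 5 of 16 pairs. Mice with different numbers were not compared, so this check cannot decide whether the numbers pair the mice. The planned normexp could not be fitted on 8 of 18 arrays. Leaving out each mouse gave 2244 to 6281 genes in HFD vs LFD, 282 to 3034 in HFD-MTX50 vs HFD, 3187 to 6214 in LFD-MTX50 vs LFD, 1360 to 4273 in HFD-MTX50 vs LFD-MTX50 and 3007 to 6203 in the difference. With 4 or 5 mice a group, the Cyp7a1 intervals of LFD-MTX50 vs LFD and HFD-MTX50 vs HFD held a 2-fold change in either direction.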
